A study of Mus musculus with 32 samples.

Results

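Transcripts that are abundant in the choroid plexus and the meninges were followed in hippocampal RNA of 8 inbred mouse strains. The 7 genes looked up were Ttr, Ptgds, Enpp2, Igfbp2, Folr1, Kl and Igf2, and every probe set whose only gene symbol in the array's annotation was one of these was taken. That gave 10 probe sets for 6 genes among 12422 non-control probe sets. Ptgds had 3 probe sets, Folr1 and Igf2 had 2 each, and Ttr, Igfbp2 and Kl had 1 each. No probe set carried Enpp2 as its single symbol in the annotation used, so its level was not analysed here. Of the 10 probe sets, 8 were among the 7453 with the highest mean signal and were tested, at least 1 for each of the 6 genes.

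The mice were untreated animals of C3H/HeJ, strain-129S1/SvImJ, A/J, FVB/NJ, DBA/2J, SJL/J, BALB/cByJ and C57BL/6J. The labels state neither age nor sex. Each strain was 1 pool of hippocampal RNA from 6 mice, made into 1 cDNA, from which cRNA was prepared 2 times and each preparation hybridised to 2 Affymetrix U74Av2 arrays. By the submitters' design text, numbers 1 and 2 mark the arrays of preparation 1, and 3 and 4 those of preparation 2. The title of FVB/NJ array 2 carries the day of other strains' second preparations, so its place is uncertain. Moving it to preparation 2 changed no call reported for the members in the fit without a block. The move was not run with the preparation as a block, and every blocked result below keeps this array in preparation 1. All 4 arrays of a strain thus share their pool, every p-value of a difference between strains measures the spread of preparations and not that between mice, and the number of arrays limits the precision. Values are the deposited linear signal or its log2, and a mean ± SD is over the 2 preparations (n = 2). In such bulk RNA, fewer cells of a type and less RNA per cell cannot be told apart.

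The choroid plexus is an epithelium inside the brain ventricles that secretes cerebrospinal fluid, and the lateral ventricle lies against the hippocampus. Its epithelial cells make transthyretin (Ttr), a carrier of thyroid hormone and of retinol bound to its binding protein, in very large amounts. They also carry the folate receptor Folr1 and the membrane protein klotho (Kl), a co-receptor for fibroblast growth factor. The meninges, the sheaths around the brain, and fibroblasts along its vessels make the growth factor Igf2, the binding protein Igfbp2 and prostaglandin D2 synthase (Ptgds). Ptgds is also made by oligodendrocytes, and Enpp2 (autotaxin) makes lysophosphatidate in both the choroid plexus and oligodendrocytes.

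The median signal of an array was 29.4 to 43.65, and Ptgds, Ttr, Igf2 and Igfbp2 lay well above it while Kl and Folr1 lay near it. Counted among all non-control probe sets, the mean log2 signal stood at the 96.3rd to 97.6th percentile for Ptgds, the 91.6th for Igf2 (98623_g_at) and the 83.7th for Ttr. It stood at the 79.4th percentile for Igfbp2, the 45.9th for Kl and the 45.0th for Folr1 (93785_at). Levels of different probe sets depend on their probes and are not compared as amounts of RNA. The 4 arrays of BALB/cByJ stood apart: their mean correlation with the other arrays of their strain was 0.891 to 0.911, against 0.907 to 0.955 for the other strains. Control probe sets for the sense strand were high on 11 arrays: every BALB/cByJ array, the first preparation of SJL/J, C3H/HeJ and A/J, and FVB/NJ array 1. On the log2 scale these controls read 7.39 on FVB/NJ array 1 and 5.33 on its array 2, whose preparation is uncertain. Its arrays 3 and 4 read 5.09 and 5.62, so array 2 was like these and not like array 1. The part of the BALB/cByJ arrays' lower correlation or of the sense-strand signal in the levels of the members was not tested. Among 13 tested neuronal genes of the hippocampus, the strain means of log2 signal were 4.59 to 5.67 for Prox1, 6.62 to 7.82 for Neurod6 and 10.29 to 10.86 for Gria1. Prox1 thus lay near the array median, as Kl and Folr1 did. Those 3 did not pass the F-test across strains described next, with adjusted p = 0.468, 0.463 and 0.357 (limma), though Neurod6 did with the cRNA preparation as a block (0.00269).

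Strain accounted for most of the spread in Ttr and Ptgds and for little of it in Kl and Folr1. A moderated F-test over the 8 strains (limma, Benjamini-Hochberg over all 7453 probe sets, threshold 0.05) called 4 of the 8 member probe sets, against 4.58% of all tested probe sets (341). These were Ttr (adjusted p = 4.84e-05) and the 3 probe sets of Ptgds (0.00043, 0.00469 and 0.00633). Igf2 (0.136), Igfbp2 (0.201), Folr1 (0.497) and Kl (0.543) were not called. With the cRNA preparation as a block, Igf2 (0.0206) and Igfbp2 (0.0173) passed as well, and the share called among all probe sets was then 18.9%. Without BALB/cByJ the same 4 probe sets passed, with adjusted p from 0.00017 to 0.00514. The share of variance that lay between strains was 92.7% for Ttr, 69.1% to 90.4% for Ptgds, 52.2% for Igfbp2 and 51.0% for Igf2. It was 15.8% for Folr1 and 14.2% for Kl, against a median of 6.73% over all tested probe sets.

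**Figure D1:**
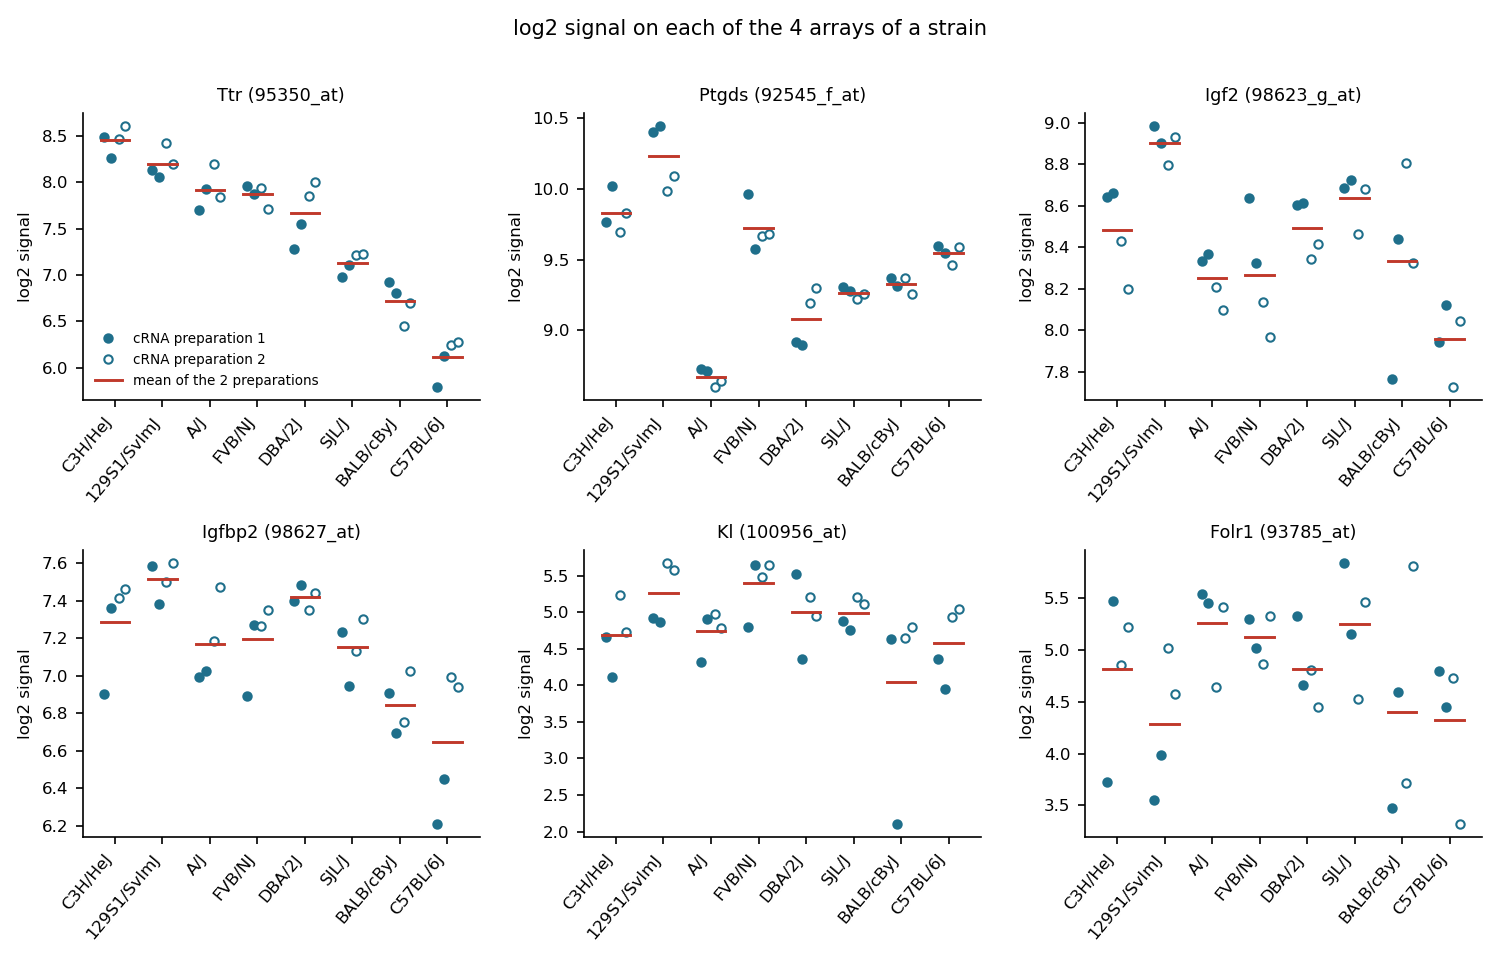
log2 signal (vertical axis) of 6 member probe sets on the 4 arrays of each strain, with strains ordered by Ttr from highest to lowest in every panel. Filled points are preparation 1, open points preparation 2, and the red bar is the mean of the 2 preparations. The Ttr points descend from C3H/HeJ to C57BL/6J with little scatter, the A/J points of Ptgds lie below all others, and the points of Kl and Folr1 overlap between strains.

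Ttr spanned 5.08-fold between the strain means, and C57BL/6J was set apart at the bottom. Its signals in C57BL/6J were 55.5, 69.7, 76.0 and 77.8 on arrays 1 to 4, and the 28 arrays of the other strains read 87.4 to 389.5. All 4 C57BL/6J arrays were thus below every other array, which was so for 0.376% of all tested probe sets. The C3H/HeJ arrays, the highest as a group, read 360.3, 306.6, 355.0 and 389.5. Strain-129S1/SvImJ followed with 280.0, 266.1, 344.7 and 293.5. These 2 groups overlapped. A/J read 207.8, 244.4, 294.7 and 230.1. FVB/NJ read 249.3, 235.1, 246.3 and 209.3. DBA/2J, with 155.0, 186.9, 232.0 and 256.1, overlapped both. SJL/J lay below these 5 strains with 125.9, 138.0, 149.1 and 149.4, and BALB/cByJ below SJL/J with 121.8, 112.2, 87.4 and 103.7.

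On the log2 scale the strain means of Ttr were 8.46 ± 0.11 in C3H/HeJ, 8.20 ± 0.16 in strain-129S1/SvImJ, 7.92 ± 0.15 in A/J and 7.87 ± 0.07 in FVB/NJ. They were 7.67 ± 0.37 in DBA/2J, 7.13 ± 0.13 in SJL/J, 6.72 ± 0.21 in BALB/cByJ and 6.11 ± 0.22 in C57BL/6J. The range of 2.35 was exceeded by 62 tested probe sets (0.832%), and the median range of a tested probe set was 0.68. No pair of neighbours in this order passed the test, the nearest being BALB/cByJ against C57BL/6J (0.61, adjusted p = 0.0792, limma), which passed with the preparation as a block (0.018, where 26.8% of all probe sets passed in this pair). Over all 28 pairs of strains, 13 passed for Ttr, and 16 with the block, which added A/J against SJL/J (0.0303) and C3H/HeJ against DBA/2J (0.0158) too. The pooled share of all tested probe sets that passed in a pair was 1.58%, and 6.14% with the block. Without the block, C57BL/6J differed from each strain except BALB/cByJ, by 2.03-fold from SJL/J (1.49% of all probe sets passed in this pair) up to 5.08-fold from C3H/HeJ (1.88%), the share in its other 4 pairs being 0.966% to 1.65%.

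Against the mean of the other 7 strains, Ttr was called in 4 strains. It was 3.03-fold lower in C57BL/6J (log2 difference -1.60 ± 0.15 (SE), adjusted p = 3.1e-05, limma), where 1.37% of all probe sets were called lower. It was 1.87-fold lower in BALB/cByJ (-0.90 ± 0.15, adjusted p = 0.00484), where the share called lower was 5.81%. C3H/HeJ was higher by 1.08 ± 0.15 on the log2 scale (0.268% of probe sets called higher), and strain-129S1/SvImJ was 1.73-fold higher (0.79 ± 0.15, adjusted p = 0.0262, with 0.349% called higher). The strain-129S1/SvImJ call was the least firm: its adjusted p was 0.0761 without BALB/cByJ, 0.193 and 0.347 without its own preparation 1 or 2, and 0.0547 without FVB/NJ preparation 2. Without BALB/cByJ preparation 2 the call in BALB/cByJ was lost (0.0551), and without C3H/HeJ preparation 1 that in C3H/HeJ (0.0518), while the C57BL/6J call remained in every fit run.

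The highest, second and lowest strain for Ttr were the same in both preparations and on 4 days. The sample titles end in 1 of 6 dates, here called days, and the labels do not say what was done on them. Of these, 4 hold 7 or 8 strains, with BALB/cByJ absent from days 3 and 4 and FVB/NJ from day 2. On each of these 4 days C3H/HeJ read highest, strain-129S1/SvImJ second and C57BL/6J lowest, with C3H/HeJ 6.49-fold, 4.40-fold, 4.67-fold and 5.01-fold above C57BL/6J. The strain values of the 2 preparations correlated with r = 0.954 and Spearman's rho = 0.929 (8 strains, a description, since both share a pool).

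Ptgds had another order, with A/J lowest and strain-129S1/SvImJ or C3H/HeJ highest. On 92545_f_at, the probe set with the least scatter, A/J read 423.6, 419.4, 388.8 and 400.2 on arrays 1 to 4, against 477.9 to 1389.2 on the 28 arrays of the other strains. All A/J arrays thus lay below all others, as in 0.0939% of tested probe sets. Strain-129S1/SvImJ read 1349.1, 1389.2, 1012.5 and 1090.9, of which the lowest was under the highest C3H/HeJ array. C3H/HeJ read 868.4, 1038.8, 828.7 and 910.3. FVB/NJ read 1000.0, 764.2, 813.3 and 819.3. C57BL/6J, where Ttr was lowest, read 774.1, 748.7, 704.3 and 770.0, in the middle of the range for Ptgds. BALB/cByJ read 663.1, 635.5, 660.2 and 612.4. SJL/J read 632.6, 620.1, 596.0 and 611.8. DBA/2J read 484.6 and 477.9 in preparation 1 and 586.3 and 631.5 in preparation 2, so that it overlapped SJL/J and BALB/cByJ in the second only.

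The 3 probe sets of Ptgds carry suffixes that the array's maker gives to probe sets not chosen as unique to 1 transcript (_f_at) or not by the usual rules (_r_at), so their assignment to Ptgds alone is uncertain. Across the 8 strain means they correlated with each other at r = 0.956 or above and rho = 0.929 or above. Against the mean of the other 7 strains, A/J was lower on all 3, by 1.87-fold on 92545_f_at (-0.90 ± 0.12, adjusted p = 0.00135), 2.06-fold on 92546_r_at (-1.04 ± 0.18, 0.00999) and 1.82-fold on 102105_f_at (-0.87 ± 0.16, 0.0204). In A/J 0.335% of all probe sets were called lower (limma). Strain-129S1/SvImJ was 1.84-fold higher on 92545_f_at (0.88 ± 0.12, adjusted p = 0.00129), and on 102105_f_at (0.70 ± 0.16, 0.073) and 92546_r_at (0.74 ± 0.18, 0.0982) it missed the threshold.

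**Figure D2:**
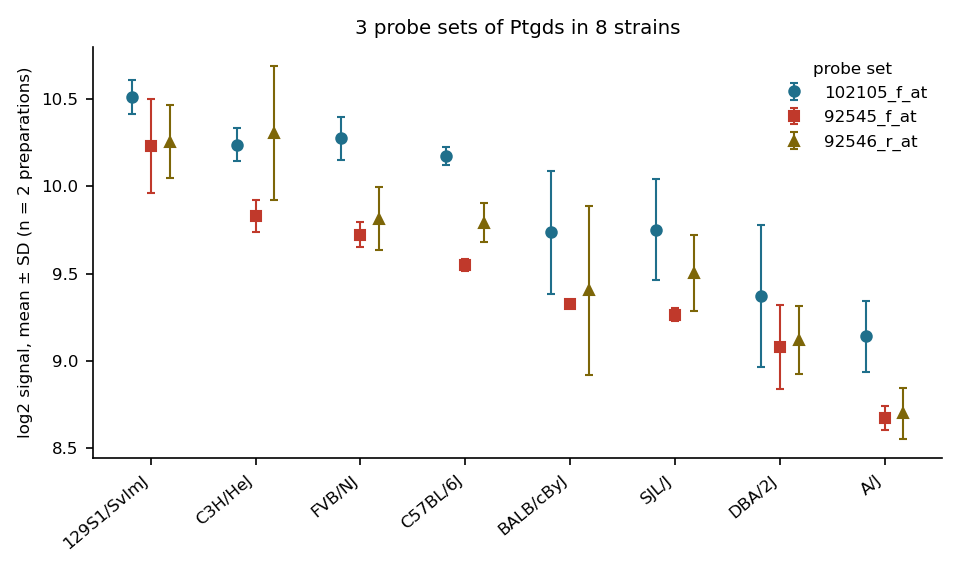
Mean log2 signal (vertical axis) of the 3 Ptgds probe sets in each strain, ordered by 92545_f_at, with bars of 1 SD over 2 preparations. All 3 are lowest in A/J and next lowest in DBA/2J, and strain-129S1/SvImJ is highest on 2 of them and C3H/HeJ on 92546_r_at.

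The A/J calls rest on both of its preparations. With either A/J preparation left out none of the 3 passed, with adjusted p of 0.0512 and 0.0702 on 92545_f_at, 0.157 and 0.271 on 92546_r_at, and 0.172 and 0.394 on 102105_f_at, while A/J stayed lower each time. The call on 102105_f_at was also lost without BALB/cByJ array 2 (0.0689) or array 3 (0.0844), and that of strain-129S1/SvImJ on 92545_f_at without its preparation 1 (0.104). With the preparation as a block, strain-129S1/SvImJ passed on all 3 probe sets, and DBA/2J was lower on all 3, by 1.35-fold to 1.52-fold (adjusted p = 0.0201 to 0.0317). C3H/HeJ passed as higher on 92546_r_at with the block (0.79 ± 0.13, adjusted p = 0.0026) and without BALB/cByJ (0.0419). With the block, the shares of all probe sets called in either direction were 1.84% in strain-129S1/SvImJ, 4.27% in DBA/2J and 1.61% in C3H/HeJ.

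Among the 28 pairs of strains, 10 passed on 92545_f_at, 6 on 92546_r_at and 5 on 102105_f_at, and 13, 13 and 9 with the block. The pooled share of all tested probe sets was 1.58%, and 6.14% with the block. No neighbours in the order of any of the 3 differed. Strain-129S1/SvImJ exceeded A/J, a pair in which 0.657% of all probe sets passed, by 2.94-fold on 92545_f_at (1.56 ± 0.15, adjusted p = 0.00012), 2.94-fold on 92546_r_at and 2.58-fold on 102105_f_at, the last of which was lost without strain-129S1/SvImJ preparation 2 (0.0677) or A/J preparation 2 (0.0774). A/J was also below C3H/HeJ, C57BL/6J and FVB/NJ (0.483%, 1.65% and 0.604% of all probe sets) on all 3 probe sets, by 1.84-fold at least and 3.04-fold at most, and the widest of these, from C3H/HeJ on 92546_r_at, was lost without A/J preparation 2 (0.0967) or C3H/HeJ preparation 1 (0.107). On 92545_f_at A/J was lowest and strain-129S1/SvImJ highest on each of the 4 well-filled days, and the 2 preparations correlated with r = 0.948 over the strains.

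Ttr and Ptgds had different orders, and their difference on the log2 scale was widest between A/J and C57BL/6J. Taken with 92545_f_at, Ttr minus Ptgds was -0.75 ± 0.22 in A/J, -1.37 ± 0.21 in C3H/HeJ, -1.41 ± 0.13 in DBA/2J and -1.85 ± 0.004 in FVB/NJ. It was -2.03 ± 0.43 in strain-129S1/SvImJ, -2.13 ± 0.16 in SJL/J, -2.61 ± 0.19 in BALB/cByJ and -3.44 ± 0.25 in C57BL/6J. A/J was highest and C57BL/6J lowest with each of the 3 Ptgds probe sets. The ratio itself was not tested across all probe sets, and its size depends on the probes of both genes.

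Igf2, a fetal growth factor that stays active in the adult meninges and choroid plexus, was highest in strain-129S1/SvImJ and lowest in C57BL/6J. On 98623_g_at the 4 arrays read 505.8, 477.8, 444.3 and 488.4 in strain-129S1/SvImJ, and 245.7, 278.1, 211.8 and 263.6 in C57BL/6J. These 2 strains, taken because they were highest and lowest, did not overlap. The share of all tested probe sets that separate them is not given here, so this is a description only. The strain means were 8.90 ± 0.05 in strain-129S1/SvImJ, 8.64 ± 0.09 in SJL/J, 8.49 ± 0.16 in DBA/2J and 8.48 ± 0.24 in C3H/HeJ. BALB/cByJ had a mean of 8.33 ± 0.33. FVB/NJ followed at 8.27 ± 0.30, A/J at 8.25 ± 0.14 and C57BL/6J at 7.96 ± 0.10. Of the 28 pairs only strain-129S1/SvImJ against C57BL/6J passed (1.93-fold, 0.95 ± 0.20, adjusted p = 0.0209), a pair in which 1.61% of all probe sets passed. Without a variance trend in limma this pair missed the threshold (adjusted p = 0.0702). That call was lost when either preparation of these 2 strains was left out (adjusted p = 0.0981 to 0.178), with arrays centred on their medians (0.139), and without BALB/cByJ array 2 (0.0675) or array 4 (0.0551), while the difference stayed at 0.85 to 1.02.

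Strain-129S1/SvImJ read highest for Igf2 on each of the 4 well-filled days, and C57BL/6J lowest on 3 of them, with BALB/cByJ array 1 (217.7) lowest on the other. Against the mean of the other 7 strains neither passed, at 0.56 ± 0.15 for strain-129S1/SvImJ (adjusted p = 0.165) and -0.52 ± 0.15 for C57BL/6J (0.0944). With the block both passed (0.0344 and 0.023, where 1.84% and 6.63% of all probe sets passed). So did 3 of the 28 pairs, against a pooled share of 6.14%. The other Igf2 probe set, 98622_at, read 1.3 to 16.2 over the 32 arrays, was below the limit for testing and ran against the first across the strain means (r = -0.711, rho = -0.786, 8 strains). A level that low gives no order of strains.

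Igfbp2, which binds insulin-like growth factors outside the cell, was likewise highest in strain-129S1/SvImJ and lowest in C57BL/6J. The arrays read 192.1, 166.8, 181.1 and 193.8 in strain-129S1/SvImJ, and 74.0 and 87.2 (preparation 1) and 127.4 and 122.6 (preparation 2) in C57BL/6J. The second preparation of C57BL/6J thus lay among the BALB/cByJ arrays, which read 103.5 to 130.1. The means were 7.52 ± 0.05 in strain-129S1/SvImJ, 7.42 ± 0.03 in DBA/2J, 7.28 ± 0.22 in C3H/HeJ, 7.20 ± 0.16 in FVB/NJ and 7.17 ± 0.22 in A/J. SJL/J followed at 7.15 ± 0.09, BALB/cByJ at 6.84 ± 0.06 and C57BL/6J at 6.65 ± 0.45. None of the 28 pairs passed, and C57BL/6J against the mean of the other 7 missed the threshold (-0.58 ± 0.16, adjusted p = 0.0949). With the block, 5 pairs passed, against a pooled share of 6.14% of all probe sets. Among them were BALB/cByJ against strain-129S1/SvImJ and against DBA/2J. In the contrasts with the block, C57BL/6J (0.0113) and BALB/cByJ (-0.35 ± 0.12, 0.0442) were called lower, where 6.63% and 30.4% of all probe sets passed in either direction. The difference in C57BL/6J was -0.26 without its preparation 1 (adjusted p = 0.818) and -0.90 without its preparation 2 (0.0362). Igfbp2 read higher in preparation 2 than in preparation 1 in 7 of 8 strains, by 0.22 on average, which is the shift that the block takes out.

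The 250 bases before the RefSeq gene start (GRCm38.p6) are shown for these 2 genes, the growth factor and its binding protein, because both were highest in strain-129S1/SvImJ and lowest in C57BL/6J. Capitals mark GC boxes, searched as GGGCGG and CCGCCC. The Igfbp2 window is chr1:72824230-72824479 on the plus strand and the Igf2 window is chr7:142666817-142667066 on the minus strand. Both are the reference sequence and not that of the strains.
Igfbp2: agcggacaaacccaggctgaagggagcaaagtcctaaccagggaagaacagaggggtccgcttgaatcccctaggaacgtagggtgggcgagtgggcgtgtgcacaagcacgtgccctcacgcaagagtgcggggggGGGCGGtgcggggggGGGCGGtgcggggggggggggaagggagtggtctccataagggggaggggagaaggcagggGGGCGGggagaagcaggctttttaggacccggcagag
Igf2: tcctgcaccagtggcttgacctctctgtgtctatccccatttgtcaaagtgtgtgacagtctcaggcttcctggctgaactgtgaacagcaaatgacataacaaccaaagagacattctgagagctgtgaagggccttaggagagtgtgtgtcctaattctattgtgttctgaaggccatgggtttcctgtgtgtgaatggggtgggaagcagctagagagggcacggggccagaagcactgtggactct
The Igfbp2 window held 3 GC boxes and the Igf2 window none, and 32.7% of the 32851 promoters in the RefSeq table held at least 1 in the same 250 bases. Neither window held a TATA box, searched as TATAAA and TTTATA and found in 12.4% of promoters. RefSeq lists 2 starts for Igfbp2 and 4 for Igf2, of which the outermost is shown, and the arrays do not tell which start was used.

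Kl and Folr1 lay near the median of an array, and their strains overlapped. Kl read 4.3 to 50.9 over the 32 arrays, with strain means from 5.40 ± 0.24 in FVB/NJ and 5.26 ± 0.51 in strain-129S1/SvImJ to 4.58 ± 0.59 in C57BL/6J and 4.05 ± 0.96 in BALB/cByJ. None of the 28 pairs passed, nor did any strain against the other 7, BALB/cByJ being nearest (-0.91 ± 0.34, adjusted p = 0.103). With the block, BALB/cByJ passed (0.0118), where 30.4% of all probe sets passed in either direction. So did 3 pairs, each of them with BALB/cByJ. The pooled share over all pairs was 6.14%, but pairs with BALB/cByJ can lie far above it. For BALB/cByJ against C57BL/6J the share with the block was 26.8%. The shares in the 3 pairs themselves are not given here. Kl was higher in preparation 2 than in preparation 1 in 8 of 8 strains, by 0.14 to 1.36 and by 0.58 on average. BALB/cByJ array 2 read 4.3, while the other BALB/cByJ arrays read 24.8, 25.1 and 27.8. Without that array the difference in BALB/cByJ was -0.27 (adjusted p = 0.553), and without its preparation 1, -0.23 (0.821). Without array 1 or preparation 2 of BALB/cByJ it was -1.54 and -1.58 and passed (0.0436 and 0.0458). With quantile normalisation or median centring in place of the deposited scaling BALB/cByJ also passed (0.0319 and 0.0341). The shares of all probe sets passing under these scalings are not given here.

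Folr1 on 93785_at had a median signal of 28.4 over the 32 arrays, and its means ran from 5.26 ± 0.33 in A/J, 5.24 ± 0.35 in SJL/J and 5.13 ± 0.04 in FVB/NJ to 4.32 ± 0.42 in C57BL/6J and 4.28 ± 0.73 in strain-129S1/SvImJ. No pair and no strain passed, with or without the block. The order changed between the preparations (r = 0.314 over the 8 strains). The second probe set, 162302_f_at, read 3.2 to 14.4, was below the limit for testing, and showed little relation to the first (r = -0.079).

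Over the 8 member probe sets and the 8 strains, 8 contrasts of a strain against the other 7 were called, 4 for Ttr and 4 for Ptgds. The share was 1.93% over all probe sets and strains. With the preparation as a block 19 were called, where the share of all probe sets ran from 1.61% in C3H/HeJ to 30.4% in BALB/cByJ among the strains given above. Of the pairwise differences 35 were called, and 62 with the block, against pooled shares of 1.58% and 6.14%. The 3 Ptgds probe sets, which ran together, gave 10, 6 and 5 of the 35, so these are not separate results.

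**Figure D3:**
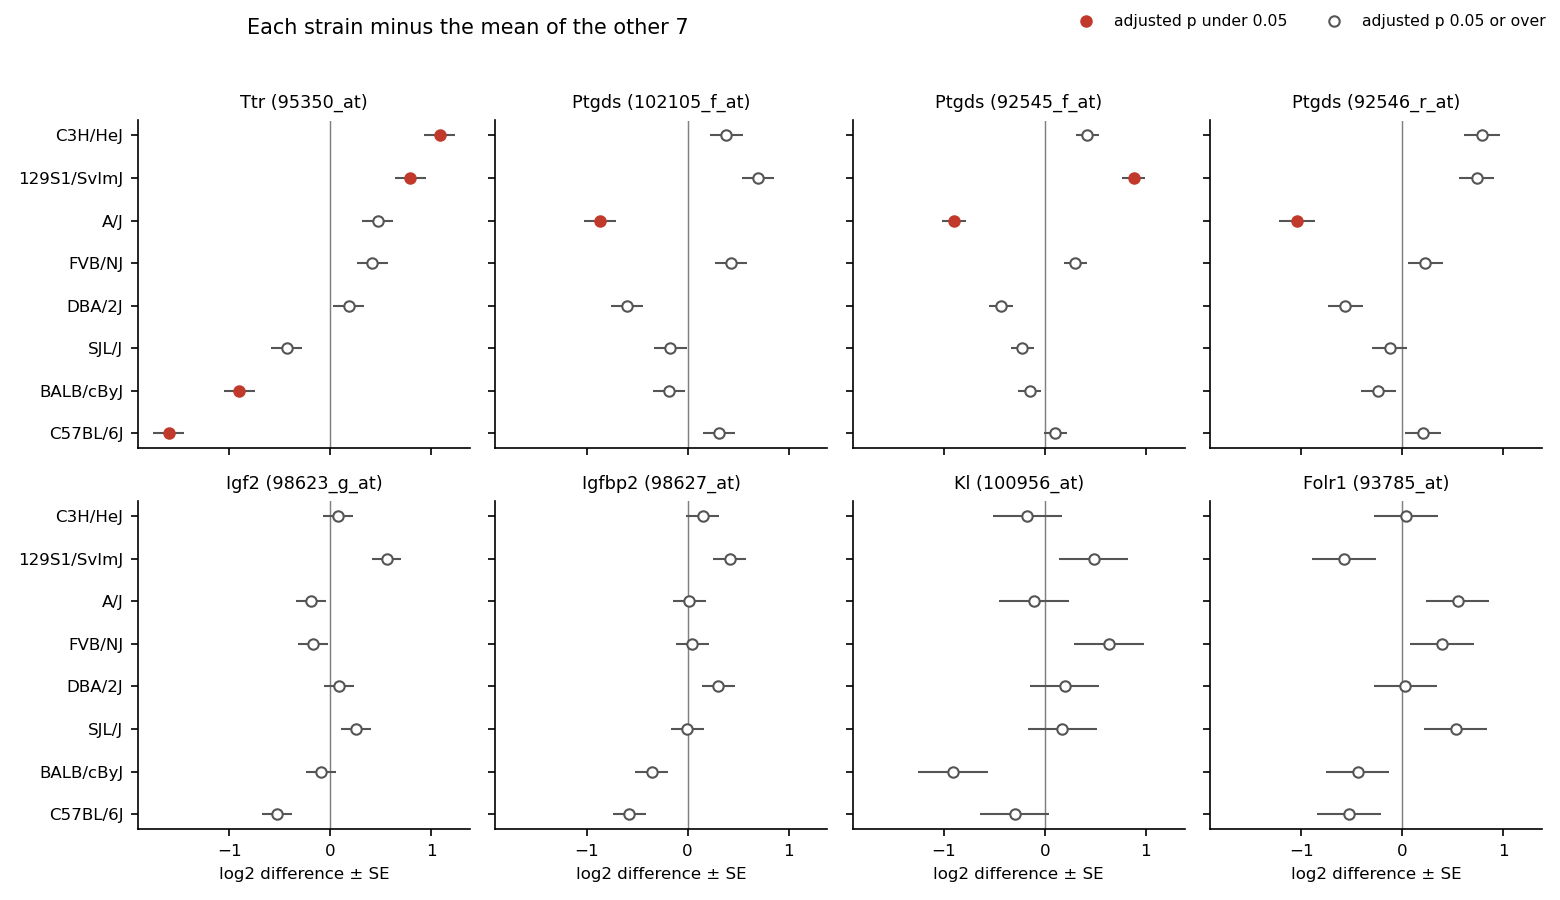
Difference of each strain from the mean of the other 7 strains (horizontal axis, log2, with bars of 1 SE) for the 8 tested member probe sets. Red points have an adjusted p under 0.05 and open points do not. Ttr has 4 red points, from -1.60 in C57BL/6J to 1.08 in C3H/HeJ, A/J is red for all 3 Ptgds probe sets, and Igf2, Igfbp2, Kl and Folr1 have none.

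Whether the members moved together across strains was read from the 8 strain means, each gene being read by its brightest probe set on average. Of the 15 pairs of genes, 13 had a positive Pearson's r, with a median of 0.343 and a range of -0.493 to 0.874. None passed after Benjamini-Hochberg adjustment over the 15 pairs, and 2 had an unadjusted exact permutation p under 0.05. Ttr and Igfbp2 had the highest r, 0.874 (exact two-sided permutation p = 0.00479, adjusted 0.0718), and a rho of 0.786 (exact p = 0.0279, adjusted 0.419). In the strain means, C57BL/6J and BALB/cByJ were lowest for both genes. Without these 2 strains r was 0.419, so the relation rests on them. Within batches r was 0.765 in preparation 1 and 0.950 in preparation 2, where it passed alone (adjusted p = 0.0145), and 0.570, 0.869, 0.868 and 0.874 on the 4 well-filled days. Over these alternatives and the leaving out of single strains, arrays or preparations, the pair passed in preparation 2 alone and without C3H/HeJ array 1, A/J preparation 1, BALB/cByJ preparation 2, C3H/HeJ preparation 1, DBA/2J preparation 1 or all of DBA/2J (adjusted p = 0.0145 to 0.0476).

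Igf2 and Igfbp2 had the next highest r, 0.801 (exact p = 0.0181, adjusted 0.136), with rho = 0.643 (exact p = 0.0962, adjusted 0.481). Without strain-129S1/SvImJ and C57BL/6J r was 0.320, so this relation too rests on the strains at the ends. It passed only without BALB/cByJ preparation 2 (adjusted p = 0.0417). It was 0.880 in preparation 1 and 0.325 in preparation 2, and 0.718, 0.775, 0.831 and 0.534 on the 4 days. Igfbp2 and Kl had r = 0.677, Igf2 and Ttr 0.578, and Kl and Ttr 0.538, and none of these passed (adjusted p = 0.325, 0.507 and 0.515). For Igf2 and Ttr r was -0.132 without strain-129S1/SvImJ and C57BL/6J, and 0.018 without C57BL/6J and BALB/cByJ. Arrays that share a strain also share its pool, so r over the 8 means reflects 8 pools and their dissection, RNA and cDNA.

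Ptgds and Ttr had a low correlation. Over the strain means r was 0.108 (exact p = 0.805) and rho 0.333 (exact p = 0.428), without C57BL/6J and BALB/cByJ r was 0.464, and on the 4 days r was 0.162, -0.178, 0.127 and 0.123. C57BL/6J was lowest for Ttr and in the middle of the order for Ptgds, and A/J was behind only C3H/HeJ and strain-129S1/SvImJ for Ttr and lowest for Ptgds. The lowest r among the 15 pairs was that of Folr1 and Ptgds (-0.493, exact p = 0.206, adjusted 0.515).

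**Figure D4:**
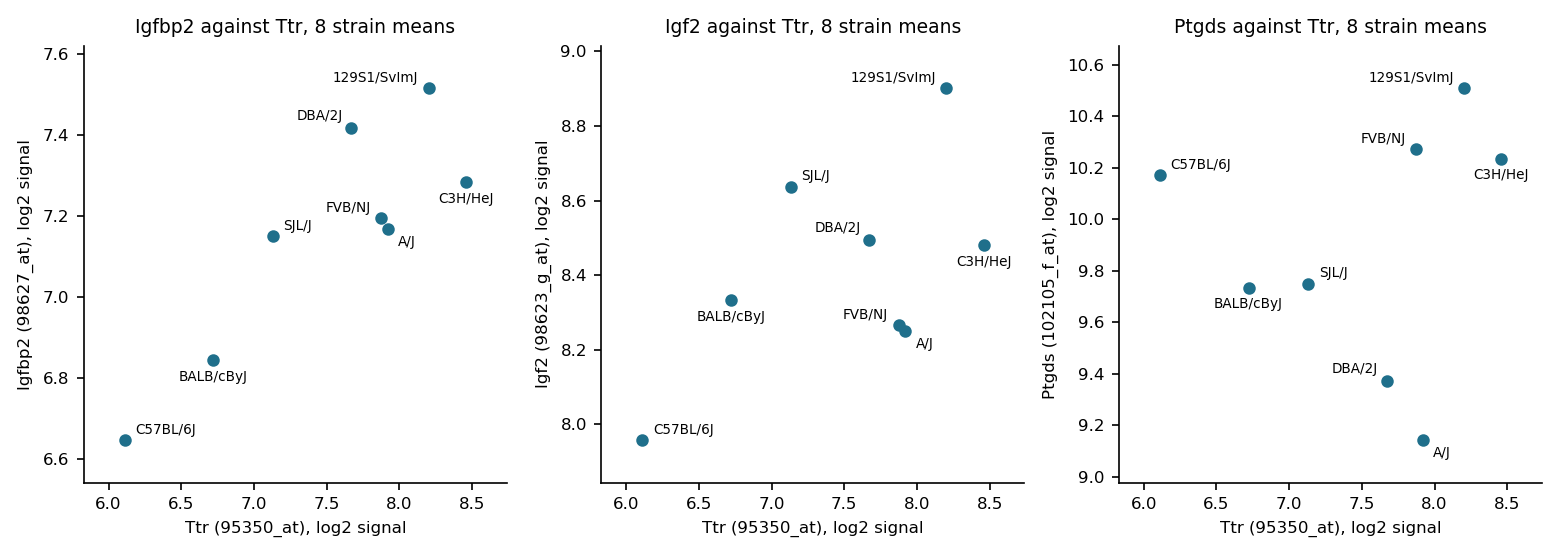
Strain means of Igfbp2, Igf2 and Ptgds (vertical axes, log2 signal) against Ttr (horizontal axis, log2 signal), 1 point for each of 8 strains. Igfbp2 rises with Ttr and both are lowest in C57BL/6J, while A/J has a high Ttr and the lowest Ptgds.

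Of the 15 genes named as running most like a member over the strain means, Ntsr2 alone passed the F-test across strains. Among 6742 tested probe sets with 1 symbol, 3.03% had r over 0.7 with Ttr. The 5 most alike were Laptm5, a lysosomal membrane protein of blood cells and microglia, with r = 0.978, R3hcc1 (0.932), Golga3, a protein of the Golgi (0.922), Gatd3a (0.911) and Mrpl54 of the mitochondrial ribosome (0.909). None of the 5 passed the F-test across strains (adjusted p from 0.502 to 0.928), and the range of Laptm5 was 0.63 against 2.35 for Ttr. For Ptgds they were Cbln1, a secreted synapse organiser, and Ntsr2, a neurotensin receptor of astrocytes, both with r = 0.923. Ntsr2 (adjusted p = 0.014) was highest in FVB/NJ and, like Ptgds, lowest in A/J. For Igfbp2 they were Rragc (0.949) and St3gal2 (0.947), for Igf2 Dph5 (0.944) and Fbxo6 (0.933), for Kl Atp6v1g1 and Srsf2 (both 0.965), and for Folr1 Arhgap5 (0.954) and Nlrx1 (0.941). These are descriptions over 8 strain means.

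Of a list of 46 choroid plexus genes, 29 had a probe set with a single symbol and 15 were tested, 11 of them not members. None of the 11 passed the F-test across strains, against 4.58% of all probe sets, and 1, Calml4, passed with the block (adjusted p = 0.00548, and 0.221 without it), against 18.9%. Calml4, a calmodulin-like protein, read lowest in BALB/cByJ (2.98) and highest in DBA/2J (5.20). The summed signal of the 11 genes was 675.0 in C57BL/6J, 780.2 in BALB/cByJ and between these in the other strains, a 1.16-fold range. Ttr had a 5.08-fold range, and it was low in BALB/cByJ, where this sum was highest. A high sum in BALB/cByJ was not particular to this list. Among the lists described below, the meningeal (1978), astrocyte (10910), thalamus and habenula (1759) and folate (371.7) sums were also highest there. The lysophosphatidate sum (409.0) was lowest there. The part of the choroid plexus in the low Ttr of BALB/cByJ was not tested. The median r of these 11 genes with Ttr over the strain means was 0.0923. Defining genes of this epithelium such as Kcnj13, Clic6, Otx2, Sostdc1 and Prlr had no probe set with a single symbol in the annotation used, and Slc4a5, F5, Aqp1, Cldn2 and Htr2c were below the limit for testing.

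Of 35 meningeal genes, 30 had a probe set and 17 were tested, and of the 14 that were not members none passed the F-test and Col1a2, a chain of type I collagen, passed with the block alone (adjusted p = 0.0219), against 4.58% and 18.9% of all probe sets. The summed signal of the 14 was 1516 in C57BL/6J and 1978 in BALB/cByJ, a 1.30-fold range. Of 6 tested ependymal genes, the stem cell factor Sox2 passed (adjusted p = 0.0317), with its lowest level in BALB/cByJ (7.03) and its highest in DBA/2J (8.36). The ependymal sum was lowest in C57BL/6J as well (733.7) and highest in A/J (870.3). All 3 sums were thus lowest in C57BL/6J, where Ttr, Igf2 and Igfbp2 were lowest, by 1.16-fold to 1.30-fold below the highest strain. A low sum there was not particular to these lists. Among the lists described below, thalamus and habenula (1382), folate (307.0) and prostaglandin (463.7) were also lowest in C57BL/6J. The oligodendrocyte (6704) and klotho (507.4) sums were highest there. The part of the 3 sums in the low Ttr of C57BL/6J was not tested.

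**Figure D5:**
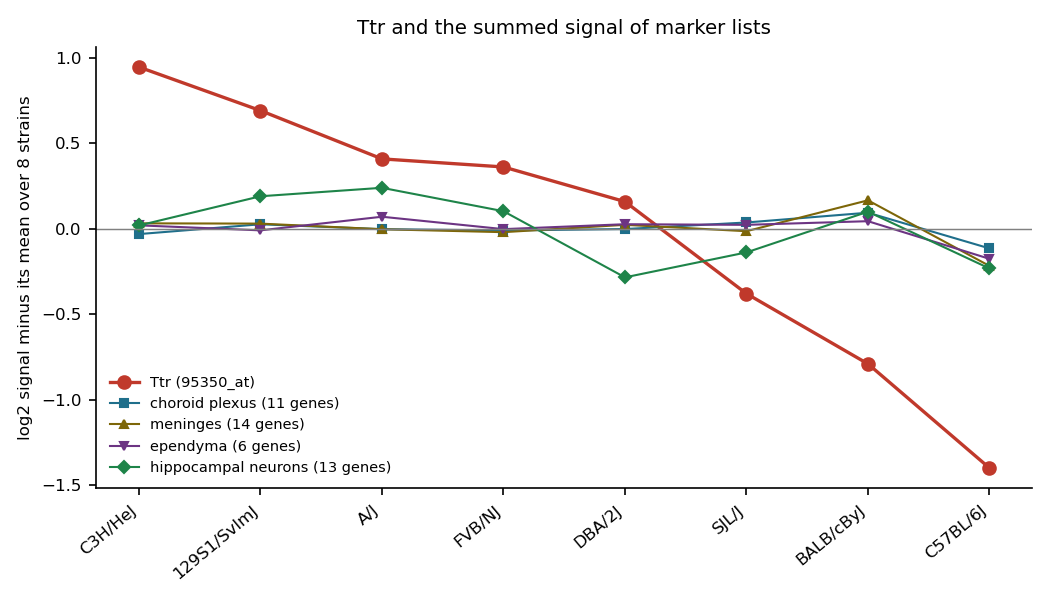
log2 signal of Ttr and log2 of the summed signal of 4 marker lists without the members, each minus its mean over the 8 strains (vertical axis), with strains ordered by Ttr. Ttr falls over a range of 2.35 from C3H/HeJ to C57BL/6J. The sums of the choroid plexus, meningeal and ependymal lists span 1.16-fold to 1.30-fold, and that of the hippocampal neurons 1.44-fold.

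Counts in the lists of other cell types are to be read against the same shares of all tested probe sets, 4.58% by the F-test and 18.9% with the block. Of 14 tested oligodendrocyte genes, a cell type that also makes Ptgds, Mag of the myelin sheath (adjusted p = 0.0176) and the lipid carrier Apod (0.00685) passed, and both were highest in C57BL/6J (8.31 and 7.99). With the block, 4 of the 14 passed. The oligodendrocyte sum ran from 5055 in C3H/HeJ to 6704 in C57BL/6J, and its r with Ptgds over the strain means was 0.364 on 102105_f_at and 0.221 on 92545_f_at. Haemoglobin Hba-a1, the 1 tested gene of red blood cells, passed (adjusted p = 0.00417) with its highest level in C3H/HeJ (10.39) and its lowest in strain-129S1/SvImJ (9.19), the strains with the 2 highest levels of Ttr. Of 13 tested neuronal genes of the hippocampus Neurod1, Camk2a and Nrgn passed (adjusted p = 0.0052, 0.00358 and 0.00529), and 9 with the block. Neurod1, a factor of granule cells, was lowest in C57BL/6J (4.90) and highest in A/J (6.63), and Camk2a was lowest in DBA/2J (8.02). Of 10 astrocyte genes and of 11 genes of thalamus and habenula none passed, and 3 of each with the block. Of 3 tested genes of the striatum the opioid precursor Penk passed (8.27 in DBA/2J, 6.92 in A/J), and of 10 vascular genes Rgs5 of pericytes (6.64 in DBA/2J, 4.17 in FVB/NJ). The part of these cell types in the levels of the members was not tested.

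The lists of pathways around the members held 0 or 1 gene past the F-test each, against the same 4.58% of all probe sets, and 18.9% with the block. Of 5 other genes tested with the carriers and partners of Ttr (Rbp4, Thra, Thrb, Dio2 and Crym), none passed the F-test and Crym, a thyroid hormone binding protein, passed with the block alone. Rbp4, the retinol binding protein that Ttr carries, had means of 3.88 in C3H/HeJ, where Ttr was highest, to 5.25 in DBA/2J (adjusted p = 0.489). Of 8 other genes of the insulin-like growth factor system, Irs2, an adaptor of the receptor, passed (adjusted p = 0.00115), at 4.37 in DBA/2J and 5.79 in C57BL/6J and at 7.23 to 7.40 in the others. The receptors Igf1r (0.893) and Igf2r (0.885), the ligand Igf1 (0.753) and the binding proteins Igfbp3, Igfbp4 and Igfbp6 (0.445 to 0.567) did not pass, and the secreted protease Htra1 (0.335) passed with the block alone (0.0185). Of the 3 other tested genes in the list of klotho and fibroblast growth factor receptors, the growth factor Fgf1 passed (adjusted p = 0.00223), with its lowest level in FVB/NJ (4.36). The receptors Fgfr1 and Fgfr2 did not. None of 6 folate genes, 6 genes of prostaglandin synthesis and reception, and 3 genes of lysophosphatidate signalling passed, and Mthfd2, a mitochondrial enzyme of folate metabolism, alone passed with the block. Among them Ptgdr2, a receptor for prostaglandin D2, had means of 6.77 in C57BL/6J to 7.32 in BALB/cByJ (adjusted p = 0.890).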

How the data were processed

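Per the labels, total hippocampal RNA was hybridised to 32 U74Av2 arrays. The authors deposited linear intensity values, 1 for each probe set on each array, and the submitters' processing notes name MAS5. The scaling target is not given in the sources used here, but the mean with 2% trimmed from each end was 99.98 on every array, so no further scaling was done. Signals under 1 were set to 1 (2.14% of values) and log2 was taken. The upper 60% of the 12422 non-control probe sets by mean were tested (limit: a geometric mean signal of 21.3). Arrays of a preparation were averaged, and limma 3.58.1 (R 4.3.3, lmFit, eBayes with trend, 8 residual degrees of freedom) fitted 8 strain means to 16 values. P-values were adjusted by Benjamini-Hochberg over 7453 probe sets within each test. In lists, the probe set of highest mean stood for a gene. Symbols came from the platform annotation (10833 probe sets with 1, 396 with several, 1193 with none). Of the 10833, 10817 matched a GRCm38.p6 RefSeq table, which changed 0 symbols.

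The preparation number pairs the strains because the design states it. The second preparation does not share its title days across strains. BALB/cByJ arrays 3 and 4 carry days 5 and 6 and FVB/NJ array 4 day 5, where the other strains carry days 3 and 4. The differences between preparations correlated in all 28 pairs of strains (r = 0.109 to 0.557). Blocked values, or for pairs their counts, stand where they change a call. All member probe sets were named, with the 5 genes most like Ttr and the 2 most like each other member, and up to 4 genes of each list past the F-test. The members and lists were chosen with earlier results of these data known, and list genes named for a block result, for a low level or for their role were added after their values were seen. No pair of arrays held identical values. The fit was tested on simulated data.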

Additional observations from a re-analysis of the deposited data

Results flagged for a closer look

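In 4 of the 80 groups of 4 arrays formed by the 10 member probe sets and 8 strains, 1 array lay far below the others of its strain, measured as its gap to the nearest array over the range of the group, which was above Dixon's critical value. Chance alone marks about 1 in 20 groups this way. Kl in BALB/cByJ read 2.10 (log2 signal) on array 2, against 4.63 to 4.80 on the other 3. Ptgds on 102105_f_at in strain-129S1/SvImJ read 10.28 on array 2, against 10.58 to 10.60. Folr1 on 93785_at in A/J read 4.64 on array 3, against 5.41 to 5.54. Igf2 on 98623_g_at in SJL/J read 8.46 on array 3, against 8.68 to 8.72.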

How the results depend on the processing

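The 4 member probe sets called by the F-test numbered 4 whichever array or preparation was left out (48 settings), and 7 with single arrays and the title day as a block. Over all probe sets the F-test called 341, against 1405 with the preparation as replicate block, 667 with it as a random block, 2324 with the day block, and 260 to 380 when an array or preparation was left out. Of the contrasts of 1 strain against the other 7, 8 were called for the members, against 19 with the replicate block, 16 with the random block, 25 with the day block, and 5 to 12 when 1 was left out, the 5 without either A/J preparation. Of the pairwise differences 35 were called, against 62, 57 and 90 under these 3 blocks, 21 without a variance trend, and 22 to 41 when 1 was left out, the 22 without A/J preparation 2. Pooled over all probe sets, 1.93% passed in a strain contrast and 1.58% in a pair, and 6.14% in a pair with the replicate block. The pooled shares under the other fits are not given here. Without the trend or with median centring, A/J on Ptgds 102105_f_at missed the threshold (0.0939 and 0.0771), as did strain-129S1/SvImJ for Ttr without the trend (0.0752) and A/J on 92546_r_at with median centring (0.0678). The Igf2 pair of strain-129S1/SvImJ and C57BL/6J missed it in both (0.0702 and 0.139). Of the 15 correlations none passed, against 1 in preparation 2 alone and 0 to 2 when 1 was left out (56 settings). None of 33 differences between strains changed direction under the alternatives run. Some of the 33 were recorded only in the fits where they passed, 1 to 3 settings each, so for these the count cannot show stability. Of the 15 correlations, 10 changed sign under at least 1 alternative, among them Folr1 with Ptgds (0.760 on day 3), Kl with Ttr (-0.015 on day 4) and Ptgds with Ttr (-0.178 on day 2, and without strain-129S1/SvImJ or C3H/HeJ). The leaving out of 2 strains is not in this count. Under it Igf2 with Ttr changed sign as well (-0.132 without strain-129S1/SvImJ and C57BL/6J). The block and random-block fits estimate the spread from other degrees of freedom, and which of them is nearer to the true error was not tested. Each strain was 1 pool, so the spread between mice has no estimate, and for Kl and Folr1, near the array median, signal over background was not measured.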
